A study of Mus musculus with 8 samples.

Results

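Keratins are the intermediate filament proteins of epithelial cells, and the genes described here are 10 of them: Krt7, Krt8, Krt18, Krt19, Krt20, Krt23, Krt5, Krt14, Krt17 and Krt80. They were taken by symbol from the 29621 genes that hold a deposited transcript, which include 43 other protein-coding keratin genes. RNA was sequenced from whole pancreas of C57BL/6 mice at postnatal day 42, with 4 libraries from each of 2 genotypes. All mice carried p48-Cre, a Cre recombinase placed at a gene of the acinar and early pancreatic lineage, an oncogene allele activated by that Cre, and the floxed Trp53fl/fl alleles. KPC mice carried these alone, and KPC-OG mice carried in addition R26tm1(LSL-OG), an OG allele at the R26 locus behind a stop cassette that Cre removes. The series presents KPC-OG as an antigenic form of the KPC tumour model, and the comparison asked how the pancreas of the genotypes differed. Whether the libraries of a group are from separate mice is not in the labels, and the p-values measure only the spread between libraries, which may be technical.

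A keratin filament is built from pairs of one type I and one type II keratin, so neither type forms filaments alone. Krt8 (type II) and Krt18 (type I) are the base pair of simple epithelium and are made in acinar and duct cells alike. Krt7 (type II) and Krt19 (type I) mark duct cells of the pancreas and the duct-like lesions that precede pancreatic cancer. Krt20 is a type I keratin of gut, gastric and urothelial surface cells, and Krt23 is another type I keratin of glandular epithelium. Krt5 (type II) and Krt14 (type I) are the pair of basal cells in layered epithelium, and Krt17 is a type I keratin of basal, appendage and injured epithelium. Krt80 is a type II keratin found in many epithelia.

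The genes lie in 2 clusters. Krt7, Krt8, Krt5 and Krt80 are on chromosome 15 with the other type II genes (GRCm38, GENCODE M21), and Krt19, Krt20, Krt23, Krt14 and Krt17 are on chromosome 11 with other type I genes. Krt18 is the exception among these type I genes and sits on chromosome 15 (102028180 to 102032027, plus strand), beside its partner Krt8 (101996698 to 102004482, minus strand). The starts of Krt8 and Krt18 are 23698 bases apart, and they are read away from each other. No other gene with a deposited transcript lies wholly between them. The 250 bases before the RefSeq start (GRCm38.p6) of Krt8 and Krt18, the neighbours whose ratio is described below, and of Krt7 and Krt20 are shown 5′ to 3′, with capitals for any match on either strand to the letters TATAAA of the core promoter box of that name, TGANTCA of the AP-1 motif or GGGCGG of the GC box.
Krt8 (chr15:102004343-102004592, minus strand): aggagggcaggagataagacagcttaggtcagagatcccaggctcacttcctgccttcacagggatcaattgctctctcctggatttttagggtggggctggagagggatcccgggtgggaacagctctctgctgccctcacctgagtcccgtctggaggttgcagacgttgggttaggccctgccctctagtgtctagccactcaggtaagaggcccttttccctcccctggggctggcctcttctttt
Krt18 (chr15:102027966-102028215, plus strand): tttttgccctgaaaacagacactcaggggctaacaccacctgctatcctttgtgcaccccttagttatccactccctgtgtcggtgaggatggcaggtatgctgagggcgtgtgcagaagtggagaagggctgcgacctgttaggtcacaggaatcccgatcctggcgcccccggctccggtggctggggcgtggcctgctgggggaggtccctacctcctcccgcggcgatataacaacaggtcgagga
Krt7 (chr15:101412153-101412402, plus strand): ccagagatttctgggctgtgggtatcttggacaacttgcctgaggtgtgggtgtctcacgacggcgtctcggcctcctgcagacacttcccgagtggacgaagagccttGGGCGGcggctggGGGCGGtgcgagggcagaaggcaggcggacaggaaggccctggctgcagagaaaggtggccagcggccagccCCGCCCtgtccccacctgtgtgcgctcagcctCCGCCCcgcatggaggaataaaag
Krt20 (chr11:99438154-99438403, minus strand): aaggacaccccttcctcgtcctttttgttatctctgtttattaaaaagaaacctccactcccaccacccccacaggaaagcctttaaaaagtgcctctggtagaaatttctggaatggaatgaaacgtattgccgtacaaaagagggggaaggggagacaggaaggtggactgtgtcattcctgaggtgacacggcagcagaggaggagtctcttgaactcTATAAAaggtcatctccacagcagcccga
The Krt7 window held 4 GC boxes and the Krt20 window held a TATA box 29 to 24 bases before the start, while the Krt8 and Krt18 windows held none of the 3 motifs in these letters. The windows of Krt23, Krt14 and Krt5, not shown, held none either, and no window was available for Krt19, Krt17 and Krt80. The Krt7 window lies inside the gene as GENCODE places it (start 101411043), and so does the Krt14 window. The Krt8, Krt18 and Krt23 windows overlap their GENCODE genes in part. Of 32851 RefSeq windows of the same length, 32.7% held GGGCGG, 12.4% held TATAAA and 6.75% held TGANTCA, and no 2 of these motifs overlapped in the windows shown. These matches are letters only and were not tested for any function.

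The KPC libraries held 7373286 to 11292570 estimated reads each, and the KPC-OG libraries 13671606 to 18292115. Reads assigned to Lars2 held 20.8% to 30.0% of the gene-level reads of KPC libraries and 3.73% to 7.12% of those of KPC-OG libraries. The depth factors that trimmed mean of M-values (TMM) scaling uses to align the typical gene were 0.483 to 0.653 for KPC libraries and 1.14 to 2.28 for those of KPC-OG. Levels are given as TMM-scaled counts-per-million values (CPM), and log2 fold changes are KPC-OG over KPC with their standard error, so "rose" is relative to the typical gene. KPC-OG 3 stood apart from the other libraries of its group, with the lowest factor and the highest summed level of 16 acinar genes (170300 CPM, against 48620 to 90240 CPM in the others and 321300 to 598300 CPM in KPC). Genes of the labelled tissue were thus abundant in all 8 libraries, and the epithelial genes Epcam and Cdh1 were present in each. In whole tissue, more cells of a type and more RNA per cell cannot be told apart.

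Of the 10 keratins, 8 passed the filter on low counts, and 7 of these rose in KPC-OG with none lower by edgeR's quasi-likelihood test at an adjusted p under 0.05. Among all 14267 genes tested, 17.4% were called higher and 16.6% lower. Krt17 and Krt80 had at most 10.6 estimated reads in any KPC library. Genes so low in KPC need the KPC-OG libraries to pass the filter. The part of Krt17 and Krt80 in the counts and the median given here thus says little. The largest increases among the well covered keratins were in the duct pair Krt19 (5.51-fold) and Krt7 (4.36-fold), followed by Krt20 (3.02-fold) and the base pair Krt8 (2.63-fold) and Krt18 (1.80-fold). Krt23 differed by less than the spread between libraries. The median log2 fold change of the 8 tested keratins was 1.49, against 0.09 over all genes tested. In 6 of the 8, every KPC-OG library lay above every KPC library, which held for 17.6% of all genes tested in this direction. KPC-OG 3 was the lowest KPC-OG library for 7 of the 8. Without it, the log2 fold changes were 2.66 for Krt19, 2.25 for Krt7, 1.76 for Krt20, 1.58 for Krt8, 1.02 for Krt18 and 0.25 for Krt23.

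**Figure D1:**
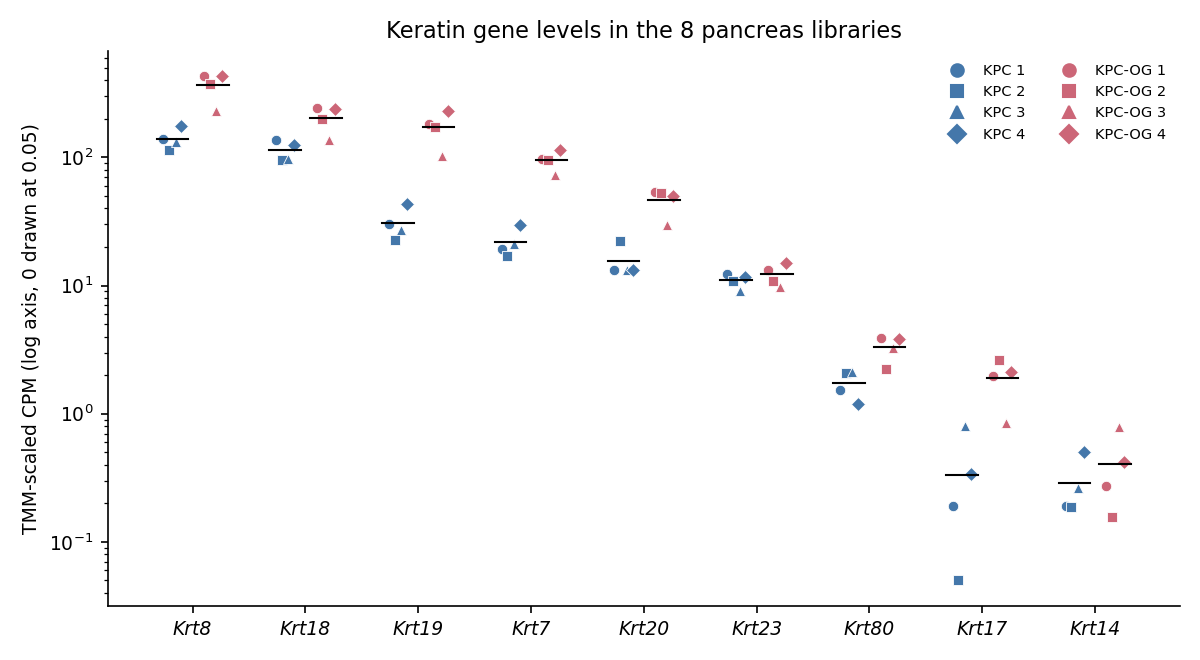
TMM-scaled CPM of 9 keratin genes (log axis) in each of the 4 KPC and 4 KPC-OG libraries, with black lines at the group means and Krt5, at 0 in every library, left out. Krt19 and Krt7 show the widest gap between the groups among the well covered genes, Krt23 overlaps between the groups at 9.02 to 15.1 CPM, and KPC-OG 3 (triangle) is the lowest KPC-OG library for most genes.

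Krt19 (ENSMUSG00000020911, chromosome 11, 100140810 to 100148665) encodes the smallest keratin of simple and duct epithelium. It stood at 30.4, 22.7, 27.3 and 43.7 CPM in KPC 1 to 4 and at 181, 172, 103 and 229 CPM in KPC-OG 1 to 4. The groups did not overlap, and the lowest KPC-OG library was more than double the highest KPC library. The change was 2.46 ± 0.28 (edgeR adjusted p = 5.58e-04), and 1.98% of all tested genes had a larger fold change. Most of its reads fell on the protein-coding transcript Krt19-201, at 73.7% ± 11.3 (SD, n = 4) for KPC and 75.7% ± 6.48 (SD, n = 4) for KPC-OG. Most of the rest fell on the processed transcript Krt19-203.

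Krt7 (ENSMUSG00000023039, chromosome 15, 101411043 to 101430313) is the type II keratin of duct cells. Its level was 19.5, 16.9, 21.2 and 29.6 CPM in KPC 1 to 4 and 96.7, 96.2, 73.3 and 115 CPM in KPC-OG 1 to 4. The groups were again apart, with KPC 4 and KPC-OG 4 the highest library of each, as for Krt19. Krt7 rose by 2.12 ± 0.20 (edgeR adjusted p = 4.65e-04). A transcript annotated as a retained intron, Krt7-202, held 57.3% ± 12.2 of the Krt7 reads (SD, n = 4) for KPC and 62.1% ± 2.42 (SD, n = 4) for KPC-OG, a difference that did not pass (exact two-sided permutation test over 8 transcript shares, p = 0.543, adjusted p = 1.0). The full-length coding transcript Krt7-201 held 33.9% ± 9.83 and 22.5% ± 2.51, and the short coding transcript Krt7-204 held 8.45% ± 5.41 and 15.0% ± 2.10 (SD, n = 4, in KPC and KPC-OG). Neither share passed the exact two-sided permutation test (p = 0.0571 and adjusted p = 0.229 for each, over 8 shares). With a transcript length offset, which corrects for such shifts in length, the Krt7 log2 fold change was 2.45.

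Krt8 (ENSMUSG00000049382) is the type II partner in the base pair. It was at 138, 115, 132 and 175 CPM in KPC 1 to 4 and at 433, 376, 231 and 431 CPM in KPC-OG 1 to 4. All KPC-OG libraries exceeded all KPC libraries, with KPC-OG 3 nearest to them. Krt8 rose by 1.39 ± 0.23 (edgeR adjusted p = 0.00186).

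Krt18 (ENSMUSG00000023043), the filament partner of Krt8, was at 138, 95.6, 96.9 and 124 CPM in KPC 1 to 4 and at 245, 200.4, 136 and 239 CPM in KPC-OG 1 to 4. Here the groups overlapped, since KPC-OG 3 lay just under KPC 1. Krt18 rose by 0.85 ± 0.22 (edgeR adjusted p = 0.0128), which is a smaller change than that of its partner. The call was lost when library sizes were used without TMM and re-centred on the median gene (log2 fold change 0.84, edgeR adjusted p = 0.0776).

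Krt20 (ENSMUSG00000035775, chromosome 11, 99428403 to 99438150) was at 13.2, 22.2, 13.3 and 13.2 CPM in KPC 1 to 4 and at 53.9, 52.6, 29.7 and 50.4 CPM in KPC-OG 1 to 4. In each group 1 library stood away from 3 close ones, KPC 2 upward and KPC-OG 3 downward, yet the groups did not overlap. Krt20 rose by 1.59 ± 0.24 (edgeR adjusted p = 0.00133). Krt23 (ENSMUSG00000006777, chromosome 11, 99477974 to 99493137) was at 12.4, 10.9, 9.02 and 11.7 CPM in KPC 1 to 4 and at 13.1, 10.9, 9.76 and 15.1 CPM in KPC-OG 1 to 4. The groups overlapped over most of their range, and the difference of 0.15 ± 0.17 did not pass (edgeR adjusted p = 0.542).

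Krt17 and Krt80 were scarce. Krt17 (ENSMUSG00000035557, chromosome 11, 100256217 to 100261029) had 0.0 to 3.5 estimated reads in the KPC libraries and 12.6 to 102 in those of KPC-OG, or 0.331 ± 0.339 and 1.90 ± 0.754 CPM (SD, n = 4). Its change of 2.65 ± 0.68 (edgeR adjusted p = 0.0136) rested on few KPC reads and did not pass with limma-voom (adjusted p = 0.0517). Krt80 (ENSMUSG00000037185, chromosome 15, 101347444 to 101370162) had 6.9 to 10.6 such reads per KPC library and 49.7 to 129 per KPC-OG library, or 1.73 ± 0.450 and 3.32 ± 0.782 CPM (SD, n = 4). The groups did not overlap in CPM, and the change was 0.96 ± 0.31 (edgeR adjusted p = 0.0364). That call was lost with limma-voom, with re-centred library sizes, after thinning to one effective depth, and when KPC-OG 1, KPC-OG 3, KPC-OG 4, KPC 4 or KPC 1 was left out (adjusted p 0.0508 to 0.23 over these).

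The basal pair was at or near 0. Krt5 (ENSMUSG00000061527, chromosome 15, 101707070 to 101712898) had no read in any library, and a count of 0 allows up to 0.148 CPM over the KPC group and up to 0.0249 CPM over the KPC-OG group, counting error only. Krt14 (ENSMUSG00000045545, chromosome 11, 100203162 to 100207548) had 0.9 to 3.4 reads per KPC library and 5.9 to 13.6 per KPC-OG library, and its CPM overlapped between the groups at 0.156 to 0.786. It was too low to pass the filter. Without the filter its log2 fold change was 0.45 and did not pass (edgeR adjusted p = 0.718). In KPC every Krt14 read was assigned to the processed transcript Krt14-202 and none to the coding transcript Krt14-201, while Krt14-201 held every read in KPC-OG 1 and KPC-OG 3, 87.7% in KPC-OG 4 and none in KPC-OG 2. These shares rest on at most 13.6 reads. Trp63, the transcription factor gene of basal cells, had 0 reads in all KPC libraries and was above 0 only in KPC-OG 4 (0.149 CPM).

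Krt14, Krt17 and Krt5 also share the most sequence with other genes. The authors' program assigned reads by 20-base words, and in GENCODE M21 transcripts 40.4% of the 20-base words of Krt14, 25.1% of those of Krt17 and 22.5% of those of Krt5 also occur in another gene. For Krt14 the main sharer is Krt16 (409 words), and for Krt17 it is Krt14 (295 words). Reads of Krt14, Krt16 and Krt17 are therefore uncertain as to gene. The share was 7.2% for Krt19, 6.55% for Krt8, 4.44% for Krt18 and 4.31% for Krt7, and under 1% (0.951%, 0.629% and 0.0647%) for Krt80, Krt20 and Krt23. The M21 transcript of Krt80 (3048 distinct words) is longer than the one the authors quantified (1774 bases), so its share is only approximate. To a lesser extent this holds for Krt8 and Krt18.

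Levels can be compared between genes only per length, here as length-corrected transcripts-per-million values (TPM). In KPC the order was Krt18 at 64.7 ± 5.32 TPM and Krt8 at 62.2 ± 10.3 TPM, then Krt19 at 19.5 ± 5.03 TPM (SD, n = 4). Krt18 and Krt8 did not differ beyond their spread there. Krt7 (6.64 ± 1.88 TPM), Krt20 (6.64 ± 2.79 TPM) and Krt23 (5.65 ± 0.752 TPM) followed, again within each other's spread. In KPC-OG the means were 533 ± 236 TPM for Krt8, 382 ± 165 TPM for Krt18, 356 ± 191 TPM for Krt19, 118 ± 50.7 TPM for Krt7, 63.1 ± 26.9 TPM for Krt20 and 20.1 ± 8.47 TPM for Krt23 (SD, n = 4). KPC-OG 3 was the lowest of that group for each of these 6 and KPC-OG 4 the highest, with Krt19 at 329, 375, 126 and 592 TPM in KPC-OG 1 to 4. TPM is a share of each whole library, so its rise between the groups is larger than that of TMM-scaled values, and all 8 tested keratins were apart between the groups on this scale, as were 80.2% of all genes tested, so this separation is near what most genes showed.

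The make-up of the keratin pool within a library does not depend on scaling between libraries, and it differed between the genotypes. Krt18 held 39.1% ± 3.40 of the summed TPM of the 10 genes for KPC and 26.1% ± 1.28 for KPC-OG (SD, n = 4). Krt19 went the other way, with 11.6% ± 1.52 in KPC and 23.5% ± 2.65 in KPC-OG, and so did Krt7, with 3.93% ± 0.639 and 8.09% ± 0.591 (SD, n = 4). The share of Krt8 overlapped between the groups, at 37.2% ± 2.88 for KPC and 36.0% ± 1.42 for KPC-OG (SD, n = 4). Krt23 held 3.40% ± 0.405 in KPC and 1.41% ± 0.211 in KPC-OG, and Krt20 held 4.01% ± 1.67 and 4.30% ± 0.426 (SD, n = 4). For Krt18, Krt19, Krt7 and Krt23 the ranges of the 2 groups did not overlap. The type II genes summed to 0.614, 0.679, 0.788 and 0.788 times the type I genes in KPC 1 to 4 and to 0.832, 0.831, 0.800 and 0.740 times in KPC-OG 1 to 4, so the balance of the types overlapped between the groups while the shares of Krt18, Krt19 and Krt7 did not.

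**Figure D2:**
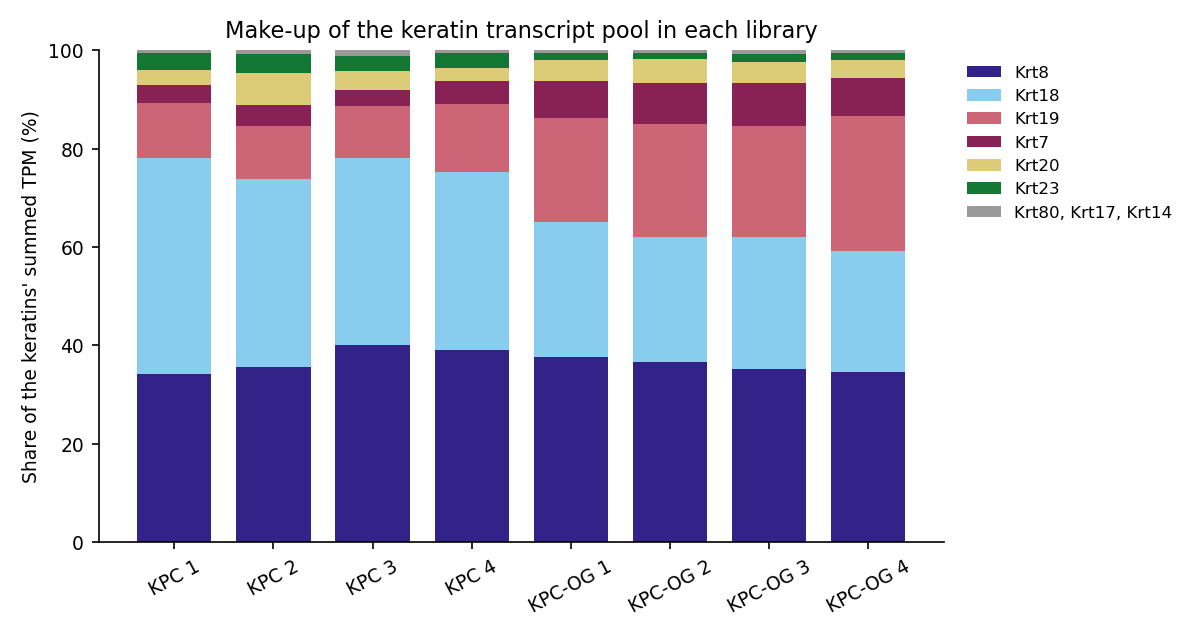
Share of each keratin gene in the summed TPM of the 10 genes (%), 1 bar per library. The light blue part (Krt18) takes 36.0% to 43.9% in the 4 KPC libraries and 24.8% to 27.5% in the 4 KPC-OG libraries, while the rose part (Krt19) takes 10.5% to 13.8% and 21.1% to 27.3%.

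Ratios of 2 genes within a library were tested next, for 9 pairs, by an exact two-sided permutation test whose smallest possible p is 0.0286. The partner ratio Krt8/Krt18 was 0.776, 0.928, 1.06 and 1.09 in KPC 1 to 4 and 1.37, 1.45, 1.32 and 1.39 in KPC-OG 1 to 4. Every KPC-OG library was higher, by 1.45-fold on average (log2 difference 0.53, exact permutation p = 0.0286, adjusted p = 0.0367 over the 9). The ratio of the other type I keratin to the same partner, Krt19/Krt8, was 0.330, 0.304, 0.261 and 0.353 in KPC 1 to 4 and 0.561, 0.626, 0.642 and 0.791 in KPC-OG 1 to 4. It was 2.09-fold higher in KPC-OG, with no overlap. Krt19/Krt18 moved the most, from 0.256 to 0.384 in KPC to 0.766 to 1.10 in KPC-OG, a 3.03-fold difference, and Krt19 exceeded Krt18 in KPC-OG 4 alone. Krt7/Krt8 was 2.14-fold higher. These 3 ratios had the same p and adjusted p as Krt8/Krt18, the smallest this design allows.

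Within the duct pair no difference in ratio passed the test. Krt7/Krt19 was 0.314, 0.393, 0.311 and 0.337 in KPC 1 to 4 and 0.353, 0.368, 0.385 and 0.284 in KPC-OG 1 to 4. The groups overlapped and the ratio differed by 0.03 on the log2 scale (exact two-sided permutation test, p = 0.83, adjusted p = 0.83). This depends on how Krt7 length is counted, since with estimated reads in place of TPM the log2 difference was -0.31 (exact permutation p = 0.0857). Estimated reads also lowered the log2 difference of Krt7/Krt8, from 1.10 to 0.77, and that of Krt7/Epcam, described below, from 0.92 to 0.595. On the CPM scale the profile of Krt7 over the 8 libraries was the sixth nearest to that of Krt19 among 9247 protein-coding genes with a mean of at least 5 CPM (root mean square difference of centred log2 values 0.22). The 5 nearer ones were Il1rn (0.14), S100a11 (0.18), Vil1 (0.19), Foxq1 (0.20) and Sfrp1 (0.22). Krt8 was at rank 178, Krt20 at 279, Krt18 at 664 and Krt23 at 2897.

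The ratio of keratins to an epithelial gene outside the family depended on the gene taken. Epcam, a surface protein of epithelial cells, rose by 1.59 ± 0.26 itself (edgeR adjusted p = 0.00167), while Cdh1, the epithelial cadherin, did not pass (-0.12 ± 0.20, edgeR adjusted p = 0.664). Krt8/Epcam was 4.28, 3.67, 3.50 and 3.69 in KPC 1 to 4 and 3.33, 2.98, 3.82 and 3.27 in KPC-OG 1 to 4, which overlapped (log2 difference -0.18, exact two-sided permutation test, p = 0.114, adjusted p = 0.129). Krt18/Epcam was 3.32 to 5.51 in the KPC libraries and 2.06 to 2.90 in those of KPC-OG, a log2 difference of -0.71. Krt19/Epcam was 1.85-fold and Krt7/Epcam 1.89-fold higher in KPC-OG (each of these 3 ratios exact permutation p = 0.0286, adjusted p = 0.0367). With Cdh1 in place of Epcam, an alternative added after seeing the data, the log2 difference for Krt18 turned round to 0.97 and that for Krt8 became 1.5. Those for Krt19 and Krt7 stayed positive, at 2.57 and 2.60 (each of the 4 exact permutation p = 0.0286). The duct keratins were thus higher against both genes, and no direction for Krt18 or Krt8 held against both.

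**Figure D3:**
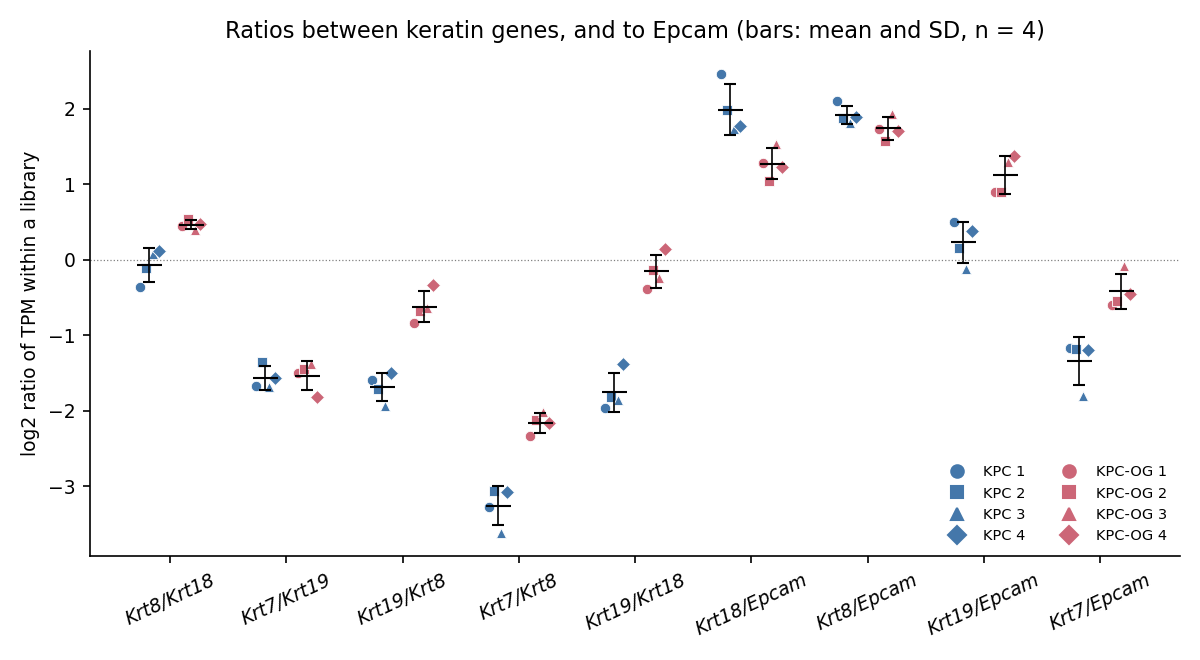
log2 ratio of TPM within each library for 9 pairs of genes, with points for the 4 KPC and 4 KPC-OG libraries and bars for the group mean and SD. The groups are apart for 7 pairs and overlap for Krt7/Krt19 and Krt8/Epcam.

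**Figure D4:**
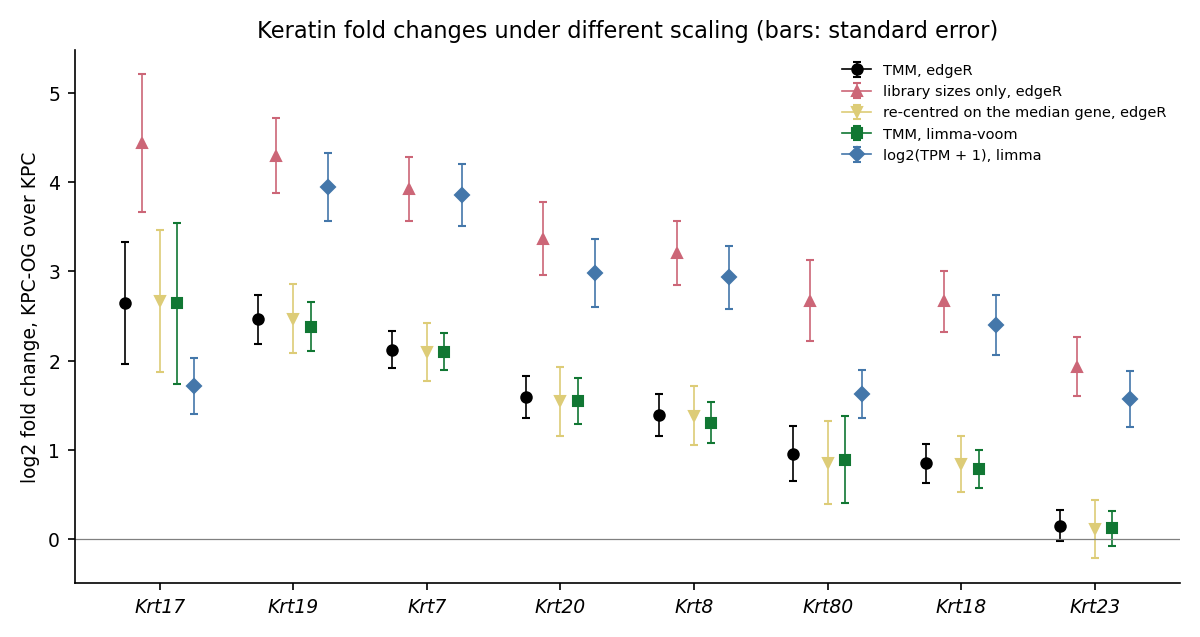
log2 fold change of the 8 tested keratins (KPC-OG over KPC, bars show the standard error) under 5 ways of scaling and testing. With library sizes alone or TPM most values lie above those with TMM, and Krt23 moves from 0.15 to 1.93 or 1.57, while Krt19 and Krt7 stay above Krt8 and Krt8 above Krt18 under each.

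The size of every fold change depended on scaling, as the plot of fold changes under different scaling shows. When library sizes alone set the scale, the median over all genes shifted up by 1.74 (log2) from its TMM value, and Krt19 was at 4.30, Krt7 at 3.92, Krt8 at 3.21, Krt18 at 2.67 and Krt23 at 1.93. Relative to that shift the order was kept, and the Krt23 call (edgeR adjusted p = 8.06e-05) belonged to that scale. None of the tested keratins among the 10 had a negative log2 fold change under any setting tried.

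Of the 43 other keratin genes, 34 had no rounded count in any KPC library, 25 had none in any KPC-OG library, and only Krt10 and Krt222 passed the filter. Neither passed the test (log2 fold change -0.80 and -0.34, edgeR adjusted p = 0.231 and 0.768). The KPC-OG group was deeper, and a count of 0 allows up to 0.0249 CPM over it, against 0.148 CPM over KPC. The larger number of genes at 0 in KPC thus says little. The summed level of the 43 genes was 1.53 to 5.31 CPM in KPC and 3.11 to 4.02 CPM in KPC-OG. The layered-epithelium keratin Krt16 was at 0 to 0.265 CPM in KPC and 0.0655 to 0.625 CPM in KPC-OG. Krt78 went the other way, at 0.338 to 1.33 CPM in KPC and 0 to 0.122 CPM in KPC-OG. Both were too low to pass the filter.

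Filaments are tied to the cell surface by desmosomes and hemidesmosomes. Of 16 tested genes for these junctions and their plakin linkers, 3 rose, 1 fell and 12 did not pass, with a median of -0.10. Over all genes tested, 17.4% were called higher and 16.6% lower, so the junction count called higher is near that share. Without KPC-OG 3, 5 rose and 2 fell, and without KPC 2 also 2 fell. Pkp1, a desmosomal plakophilin of layered epithelium, rose by 3.23 ± 0.76 from a level near 0, the hemidesmosomal linker Dst by 1.0 ± 0.18 and the envelope linker Ppl by 0.75 ± 0.19, while the desmosomal cadherin Dsg2 fell by 0.85 ± 0.16 (edgeR adjusted p = 0.00934, 0.00258, 0.0134 and 0.00361). Desmoplakin, which anchors keratin to the desmosome, did not pass (Dsp, -0.39 ± 0.17, edgeR adjusted p = 0.0974). Of 11 keratin-binding or keratin-modifying genes, 3 rose and 2 fell, with a median of 0.13. They were Sfn, the 14-3-3 protein of epithelium (1.49), Fbf1 (0.58), Usp13 (4.20, from near 0), Rchy1 (-0.73) and the ubiquitin ligase gene Stub1 (-0.53). Among 9 tested intermediate filament genes of other classes, Vim, the filament of mesenchymal cells, rose by 1.47 ± 0.24 (edgeR adjusted p = 0.00178). Lmna rose by 0.61 and Bfsp1 by 2.34, and Nes fell by 1.5. Bfsp1 was near 0 in KPC (0.169 to 0.531 CPM), so its part in the count says little. Without KPC-OG 3, 5 genes of this list rose.

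Of 17 tested genes of simple epithelium other than keratins, 5 rose, 3 fell and 9 did not pass, with a median of 0.07, beside 17.4% higher and 16.6% lower over all genes. Only 1 fell when KPC 1, KPC 4, KPC-OG 2 or KPC-OG 4 was left out, and with re-centred library sizes 2 rose and none fell. Epcam, Cldn4, Cldn7, Elf3 and Prom1 rose (1.59, 2.28, 0.97, 0.99 and 0.67), and Esrp1, Ap1m2 and Spint1 fell (-0.56, -0.36 and -0.44). Of 16 duct genes other than keratins, 7 rose and 2 fell, with a median of 0.39 and with Cftr (2.22), Ambp (1.89), Kcne3 (2.59) and Tspan8 (2.85) those of smallest adjusted p, while the duct transcription factor gene Sox9 was at 0.15 ± 0.25 (edgeR adjusted p = 0.687). The 2 duct genes that fell were Onecut1 (-0.90) and Muc1 (-0.81). Of 13 tested genes for transcription factors known from work on keratin genes, 7 rose and 1 fell, with a median of 0.74. Gli2, among the 7, was at 0.265 to 1.35 CPM in KPC, so its part in the count says little. Junb, Fos, Klf5 and Klf4 rose by 1.71, 2.17, 1.79 and 0.95, and Ets2 fell by 0.80.

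Markers of other cells that could hold keratin RNA moved with these results as follows, and their part in them was not tested. The counts below stand beside 17.4% called higher and 16.6% called lower over all genes tested. Of 9 tested mesothelium genes, which mark a surface layer that also makes simple keratins, 3 rose (Msln 0.99, Wt1 1.45 and Rspo1 1.52), and the summed level was 26.9 to 56.5 CPM in KPC and 42.4 to 85.9 CPM in KPC-OG. Intestinal genes, which share Krt20 with gut epithelium, had 4 of 11 members that passed the filter, which a gene near 0 in KPC can do only through KPC-OG, so that the count called says little. They were Cdh17 (3.04), Lgals4 (2.89), Vil1 (2.34) and Fabp1, the last resting on KPC-OG 2 and KPC-OG 3 (8.71 and 8.64 CPM, against 0.548 and 0.595 CPM in the other KPC-OG libraries), with a summed list level of 9.95 to 22.8 CPM in KPC and 88.5 to 149 CPM in KPC-OG. The gut transcription factor genes Cdx1 and Cdx2 were above 0 in KPC-OG 1 alone among the KPC-OG libraries (0.0913 and 0.213 CPM), and in KPC only Cdx2 in KPC 4 was above 0 (0.169 CPM). Of 14 gastric-type metaplasia genes, 11 rose and 2 fell, with a median of 2.46, and only 1 fell when any one of KPC-OG 1, KPC-OG 2, KPC-OG 4 and KPC 1 was left out. Those of smallest adjusted p were Anxa10 (2.67), Ctse (3.58), Gkn3 (3.28) and Cldn18 (2.37). The 2 that fell were Tff2 (-0.83) and Dmbt1 (-1.97). Onecut2 was at 0 CPM in every KPC library, so it passed the filter only through KPC-OG. Vsig1, also among those that rose, was at 0.376 to 3.21 CPM in KPC. Genes so low in KPC need the KPC-OG libraries to pass the filter. Their part in the count and the median of this list thus says little. The 14 genes summed to 39280 to 55100 CPM in KPC and 9032 to 22610 CPM in KPC-OG, most of it from Dmbt1, which the pancreas also makes. Of the basal and squamous genes other than keratins, 6 of 14 passed the filter, some of them near 0 in KPC, so the count called again says little. S100a14 (3.12), Sprr2a1 (3.28), Sfn (1.49) and Serpinb5 (2.58) had the smallest adjusted p. Lor, too low to pass the filter, went the other way, at 0.507 to 1.34 CPM in KPC and 0.0518 to 0.268 CPM in KPC-OG. The summed level of the list was 5.26 to 12.7 CPM in KPC and 35.5 to 52.3 CPM in KPC-OG, and Sprr1b and Sprr3 were at 0 in every library. Of 16 acinar genes 15 fell, with a median of -2.10, with the smallest adjusted p for Gatm (-2.11), Rbpjl (-1.59), Nr5a2 (-1.21) and Bhlha15 (-2.06). Tuft cell genes summed to 14.3 to 18.6 CPM in KPC and 33.4 to 106 CPM in KPC-OG, and Alox5 (1.98), Dclk1 (1.78), Trpm5 (2.66) and Avil (2.44) rose of the 4 of 8 that passed the filter. Without KPC 1 or without KPC-OG 3, 7 of the 8 rose. A tuft gene near 0 in KPC can pass the filter only through KPC-OG, so these counts say little. Of 9 fibroblast genes 7 rose, among them Dpt (1.32), Col1a2 (1.80), Dcn (1.52) and Col1a1 (1.66), with a summed level of 494 to 644 CPM in KPC and 819 to 2415 CPM in KPC-OG. Of 7 tested leukocyte genes Cd68 (1.10), Lyz2 (1.61) and Csf1r (0.79) rose, with a summed level of 154 to 405 CPM in KPC and 528 to 836 CPM in KPC-OG. Of 10 islet genes Ppy (1.96) and Chgb (2.20) rose and Pcsk1 (-0.96) fell, with a summed level of 549 to 1233 CPM in KPC and 585 to 1196 CPM in KPC-OG. The islet count called higher was 1 when any single library other than KPC-OG 3 was left out, and 3 islet genes fell without KPC 4.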

How the data were processed

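RNA of 8 pancreas libraries was sequenced after ribosomal depletion, per the labels' protocols. Per the file headers, the authors ran Sailfish 0.6.3 with 20-base words and 1000 iterations on an Ensembl release 76 mouse index, and the deposited estimated counts and TPM values are bias corrected. The submitters' processing notes also name STAR 2.0.4b, edgeR and limma, without their roles. No source used here gives the genome build of that index.

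Transcripts were joined to GENCODE M21 genes (83827 of 86127 matched, and the unmatched ones, 1.45% to 4.23% of reads, were left out). Estimated counts were summed per gene and rounded. Genes were tested in R 4.3.3 with the robust quasi-likelihood test of edgeR 4.0.16, at an adjusted p of 0.05. It used TMM, filterByExpr, no block and Benjamini-Hochberg adjustment over all 14267 genes tested. Run on simulated counts with known changes, the same test missed some of the changed genes. A gene that did not pass may thus still differ. Other fits used DESeq2 1.42.0 and limma 3.58.1, with a pseudocount of 1 or 0.1 on TPM. Strand is not stated, so overlapping genes cannot be told apart. Intervals and the floor of 3 counts cover counting error only. Ratios use TPM summed per gene. No 2 libraries of a group agreed within counting noise (chi-square per degree of freedom at least 14.7).

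The members and lists were chosen with earlier results of these data known. The text names all 10 members, other keratins that passed and averaged at least 1 CPM (none qualified, and the 2 tested ones, Krt16 and Krt78 were named after their values were seen), and up to 4 passing members of a list by adjusted p, or every passing member where 5 or fewer passed, together with Trp63, Epcam, Cdh1, Vim and Sox9. Dsp, Ets2, Gli2, Prom1, Esrp1, Ap1m2, Spint1, Onecut1, Muc1, Tff2, Dmbt1, Onecut2, Vsig1, Cdx1, Cdx2, Sprr1b, Sprr3 and Lor were also named after their values were seen.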

Additional observations from a re-analysis of the deposited data

Results flagged for a closer look

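In each group of 4 libraries, a value was picked out when its gap to the nearest other library took more of the group's range than Dixon's test allows, which chance does in about 1 group of 20. Of 50 groups of keratin levels, ratios and transcript shares, 4 had such a library. Krt20 was at 22.2 CPM in KPC 2, against 13.2 to 13.3 CPM in the other KPC libraries, and in that library the intestinal genes Vil1 (4.88 CPM) and Lgals4 (3.38 CPM) were at their lowest in KPC and Cdh17 (1.69 CPM) at its highest. Krt20 was at 29.7 CPM in KPC-OG 3, against 50.4 to 53.9 CPM in the other KPC-OG libraries, and most other keratins were lowest there too. The ratio Krt7/Epcam was 0.285 in KPC 3, against 0.439 to 0.444 in the other KPC libraries. The short Krt19-202 transcript held 0.448% of Krt19 reads in KPC 3 and none in the other KPC libraries, which at this depth is less than 1 estimated read.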

How the results depend on the processing

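The count of keratins called higher ran from 5 to 8 over 22 alternatives, and Krt19, Krt7, Krt8 and Krt20 were called under each of them. Krt18 lost its call under 1 alternative, Krt17 under 1 of 21 (it could not be tested after thinning) and Krt80 under 9, while Krt23 was called with library sizes alone and with TPM at either pseudocount. The count of all genes past the threshold was 4859, but 13177 with library sizes only, 2317 after re-centring those on the median gene, and 13071 and 13021 with TPM at pseudocounts of 1 and 0.1. These scalings also moved its split, from 2486 higher and 2373 lower to 13078 and 99, 917 and 1400, 12946 and 125, and 12898 and 123. A covariate for the thread count in the headers' command lines, added after seeing the data, kept 7 keratin calls.

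With Cdh1 in place of Epcam, also added after seeing the data, Krt18/Epcam reversed to 0.97 and Krt8/Epcam moved to 1.5 and passed. With estimated reads in place of TPM, the log2 difference fell to 0.77 for Krt7/Krt8 and to 0.595 for Krt7/Epcam. Without one library at a time, exact tests of 3 against 4 cannot go below 0.0571, so no ratio could pass. The log2 differences then ran from 0.44 to 0.60 for Krt8/Krt18, 0.97 to 1.14 for Krt19/Krt8, 0.98 to 1.16 for Krt7/Krt8, 1.5 to 1.73 for Krt19/Krt18, -0.80 to -0.55 for Krt18/Epcam, 0.77 to 0.98 for Krt19/Epcam and 0.76 to 0.98 for Krt7/Epcam. Same-numbered libraries of the groups did not deviate together throughout (correlations 0.286, 0.295, 0.0714 and 0.0582), so the numbers were not taken as pairs. With the replicate number as a block, Krt80 lost its call (edgeR adjusted p = 0.0804) and no other keratin call changed. Over complete pairs the same ratios have by arithmetic the differences of the group means (0.53, 1.07, 1.10, 1.60, -0.71, 0.89 and 0.92), and a sign-flip test of 4 pairs cannot go below 0.125. Among the context lists, re-centring left 4 fibroblast and 4 transcription factor genes higher (7 each otherwise), 1 keratin-binding gene lower (2 otherwise) and 1 islet gene higher and none lower, and limma-voom left 1 mesothelium gene and 1 islet gene higher. The block changed the junction list to 2 lower and the islet list to 1 higher. Depth limits Krt14, Krt17 and Krt80, with at most 10.6 estimated reads in any KPC library.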
